A study of Danio rerio with 12 samples.

Results

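Glutamate receptor genes were followed in whole eyes of zebrafish carrying a mutation in mmachc, an enzyme that processes vitamin B12 after its uptake into the cell. The members were all genes named for AMPA (gria), kainate (grik), delta (grid), NMDA (grin) or metabotropic (grm) glutamate receptor subunits, on probe sets that list exactly 1 gene symbol. They came to 37 genes on 40 probe sets, of 19260 genes on the array. Of these, 26 encode ionotropic and 11 metabotropic receptors. RNA came from 4 groups of 3 pools each: eyes of mmachc mutants, which the sample titles call homozygous, and eyes of mmachc heterozygotes, aged 7 or 28 days post fertilization (dpf). The heterozygotes carry 1 copy of the mutation, so no group without it was measured. The nature of the mutation, the number of fish in a pool and whether pools came from separate clutches are not given in the sources used here. P-values therefore measure the spread between these pools, which may be technical.

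Ionotropic glutamate receptors are ion channels assembled from subunits, and metabotropic receptors act through G proteins. In the retina, photoreceptors release glutamate in the dark. OFF bipolar cells and horizontal cells receive it mainly through AMPA and kainate receptors, while ON bipolar cells use the metabotropic receptor mGluR6, which closes a cation channel when glutamate binds. In the inner retina, bipolar cells release glutamate onto amacrine and ganglion cells, where AMPA and NMDA receptors lie. Group I metabotropic receptors couple to Gq and phospholipase C, and those of groups II and III couple to Gi or Go proteins.

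Values are log2 intensities as deposited, so a difference of 1 is a 2-fold change in intensity. Within a group, 2 arrays correlated across genes at 0.989 to 0.994. The targeted gene could not be checked, because its probe set lists hspa8 as well. That joint probe set ranged over 7.23 to 7.48 in mutant and 7.43 to 7.49 in heterozygous pools at 7 dpf, and over 7.40 to 7.57 in mutant and 7.19 to 7.38 in heterozygous pools at 28 dpf. Of the 37 receptor genes, 34 passed the filter on dim genes, 23 ionotropic and 11 metabotropic, and entered limma's test with 14002 genes in all. The words rose and fell are kept for genes with an adjusted p under 0.05. No member passed the filter through 1 group alone (0 of 34). The kainate receptor gene grik6 and the NMDA receptor genes grin2da and grin3bb lay below the filter level on all 12 arrays, with group means between 4.71 and 5.90. Levels of different probe sets cannot be set against each other on an array, so each gene is compared only with itself. The probe sequences were not used here, and how far duplicated genes such as grm6a and grm6b share probe signal was not tested.

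At 7 dpf, 4 receptor genes rose in mutant larval eyes, and none of the 34 fell by limma's test (0 at an unadjusted p under 0.05, against 11 higher). Those that rose were grm6b, 1 of the pair of zebrafish genes for mGluR6, grm5b, a group I metabotropic receptor, and the AMPA receptor genes gria3b and gria4a. Over all genes tested, 4.05% rose and 8.40% fell, 12.4% together. The receptors' median difference was 0.11, and that of all genes was -0.03. In 29 of 34 the mutant mean was the higher, beside 5798 of all 14002 genes. The number that rose was 7 with each array centred on its named probe sets and 11 with those probe sets quantile-normalized again. Over all 14002 genes, 764 rose and 1021 fell after centring, and 896 rose and 981 fell after the second quantile normalization. The 3 mutant pools lay above the 3 heterozygous pools in 15 receptor genes and below them in 0, while this held for 11.8% and 18.6% of all genes, 30.4% without overlap either way.

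The level of grm6b was 9.12, 9.08 and 8.98 in mutant pools at 7 dpf, against 8.72, 8.69 and 8.83 in heterozygous pools. The groups did not overlap, and the difference was 0.31 ± 0.07 (± SE, n = 3 against 3, limma adjusted p = 0.00504). For grm5b, mutant pools measured 8.73, 8.79 and 8.92, and heterozygous pools 8.60, 8.54 and 8.52. Every mutant pool lay above every heterozygous pool, by 0.26 ± 0.07 in the means (limma adjusted p = 0.024). This call was lost without heterozygous pool 2 or 3 or mutant pool 2 or 3 at 7 dpf.

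The gria3b subunit measured 9.47, 9.47 and 9.59 in mutant pools and 9.27, 9.22 and 9.36 in heterozygous pools at 7 dpf, a difference of 0.22 ± 0.06 (limma adjusted p = 0.0196). For gria4a the values were 9.02, 9.05 and 9.27 in mutant and 8.94, 8.82 and 8.90 in heterozygous pools, with a difference of 0.22 ± 0.07 that barely passed (adjusted p = 0.0475). In both genes the groups did not overlap, although mutant pool 3 of gria4a stood above the other two. The other 6 AMPA receptor genes also had the higher mean in mutant eyes, by 0.01 to 0.14, without passing. Among the other subunits, differences of 0.29 in grin2cb (adjusted p = 0.0719) and 0.19 in grik3 (adjusted p = 0.0567) came near the threshold, and the lowest was -0.15 in grm2b (adjusted p = 0.258). After centring, gria2a (0.17), grik3 (0.22) and grin2cb (0.32) were called as well. The number that rose was 1 without heterozygous pool 2 or mutant pool 3 of this age, and 2 without heterozygous pool 1 or 3 or mutant pool 2. In each of these fits grm6b still rose. The call of gria3b was lost without heterozygous pool 1 or 2 or mutant pool 3 at 7 dpf, and that of gria4a in 10 of the 12 fits that left out 1 array (all but those without mutant pool 1 at 7 dpf or heterozygous pool 2 at 28 dpf), with no filter, with no variance trend and with the 7 dpf arrays alone.

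At 28 dpf, 18 receptor genes rose in mutant juvenile eyes and 2 fell, led by the NMDA receptor gene grin2cb, which was 2.17-fold higher, and grm6b, which was 1.67-fold higher. Of all genes tested, 21.8% rose and 39.0% fell, 60.8% together. The receptors were thus called about as often as other genes (20 of 34), with rises outnumbering falls where falls outnumbered rises over all genes (3051 rose and 5462 fell). Their median difference was 0.19, and that of all genes was -0.09. Mutant pools lay above heterozygous pools in 19 receptor genes and below them in 2, compared with 23.6% and 40.8% of all genes, 64.4% either way. The balance of rises and falls depends on how arrays are scaled. With each array centred on its named probe sets, the median over all genes moved to 0.11 and 5842 genes rose and 3284 fell, and 29 receptor genes rose and 0 fell. With the named probe sets quantile-normalized again, 4388 genes rose and 4276 fell, with 23 rises and 2 falls among the receptors. The receptors' median lay 0.28 above that of all genes as deposited, 0.25 after the second quantile normalization and 0.21 with no filter on dim genes (37 receptor genes), while centring cannot move this distance.

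**Figure D1:**
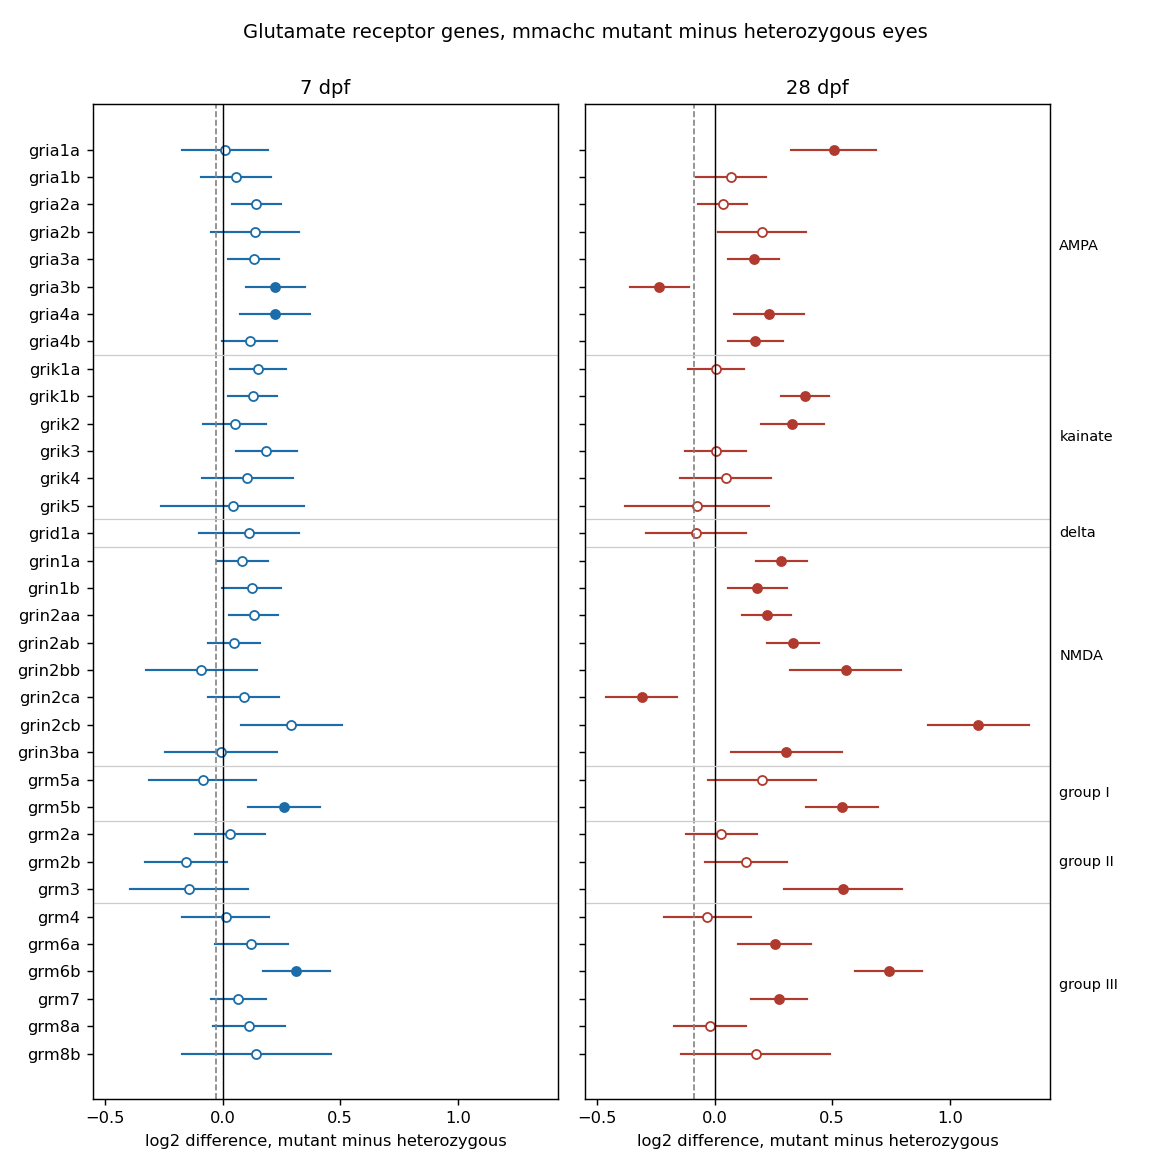
Log2 differences (mutant minus heterozygous eyes) of the 34 receptor genes tested, at 7 dpf (left) and 28 dpf (right), with 95% intervals from limma (n = 3 pools per group). Filled points passed at an adjusted p under 0.05, open points did not, and the dashed line is the median of all 14002 genes. At 7 dpf the points lie between -0.15 and 0.31, and at 28 dpf between -0.31 and 1.12.

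All 8 NMDA receptor genes tested were called at 28 dpf, 7 upward and 1 downward, beside 21.8% and 39.0% of all genes. NMDA receptors pair the obligatory GluN1 subunit, encoded by grin1a and grin1b, with GluN2 subunits that bind glutamate or with GluN3 subunits. The GluN2C gene grin2cb measured 7.95, 8.26 and 8.38 in mutant pools, against 6.90, 7.12 and 7.21 in heterozygous pools. The groups lay well apart, with a difference of 1.12 ± 0.10 (limma adjusted p = 1.93e-07), the largest among the receptors at either age.

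Its duplicate grin2ca was lower in mutant eyes, at 7.99, 8.05 and 7.99 in mutant pools and 8.25, 8.27 and 8.43 in heterozygous pools (-0.31 ± 0.07, limma adjusted p = 0.00139). The 2 copies thus differed in opposite directions without overlap of the groups in either. After centring, the difference in grin2ca was -0.11 and was no longer called (adjusted p = 0.157), while the call of grin2cb held under every alternative tried. The GluN2B gene grin2bb had 6.48, 6.76 and 6.56 in mutant and 5.89, 6.14 and 6.08 in heterozygous pools, a difference of 0.56 ± 0.11 (adjusted p = 0.000431). Its heterozygous values at 28 dpf lay below the filter level of their arrays, which ranged over 6.14 to 6.26, so the size of this difference is not exact. Smaller rises were found in grin2ab (0.33), grin3ba (0.31), grin1a (0.28), the GluN2A gene grin2aa (0.22) and grin1b (0.18). The call of grin1b was lost without heterozygous pool 2, and that of the dim gene grin3ba without heterozygous pool 1 or 2 or mutant pool 2 or 3.

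Among 8 AMPA receptor genes, which carry the fast component of glutamate transmission, 4 rose and 1 fell at 28 dpf. Over all genes 21.8% rose and 39.0% fell. The GluA1 gene gria1a measured 7.66, 7.95 and 7.58 in mutant pools, against 7.20, 7.28 and 7.19 in heterozygous pools. Mutant pool 2 stood above the other two, and the groups did not overlap (0.51 ± 0.09, limma adjusted p = 0.000102). Rises were smaller in both GluA4 genes, gria4a (0.23) and gria4b (0.17), and in the GluA3 gene gria3a (0.17). The call of gria4a was lost without heterozygous pool 2 and that of gria4b without mutant pool 3. The call of gria3a was lost with the mean of its 2 probe sets in place of the brighter one (adjusted p = 0.0558) and with a second quantile normalization over named probe sets (adjusted p = 0.109).

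The other GluA3 gene, gria3b, was lower in mutant eyes at 28 dpf, with 9.01, 9.17 and 9.10 in mutant and 9.34, 9.31 and 9.33 in heterozygous pools (-0.23 ± 0.06, limma adjusted p = 0.00297). It was the only receptor gene called upward at 7 dpf and downward at 28 dpf. After centring the difference was -0.04 and not called (adjusted p = 0.638). Not called at 28 dpf as deposited were gria1b (0.07), gria2a (0.03) and gria2b (0.20, adjusted p = 0.0591). The 95% interval of the difference in gria2a, a gene for the GluA2 subunit that limits calcium entry through AMPA receptors, ran from -0.07 to 0.14. After centring, gria1b (0.27), gria2a (0.23) and gria2b (0.40) rose. With a second quantile normalization gria2b (0.29) rose, and gria1b (0.13) and gria2a (0.00) did not pass.

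Of 6 kainate receptor genes 2 rose at 28 dpf, beside 21.8% of all genes that rose and 39.0% that fell. The GluK1 gene grik1b measured 9.95, 9.98 and 10.05 in mutant pools and 9.59, 9.62 and 9.62 in heterozygous pools, without overlap (0.38 ± 0.05, limma adjusted p = 5.64e-06). The GluK2 gene grik2 rose by 0.33 ± 0.06 (adjusted p = 0.000289). The remaining kainate receptor genes differed by 0.05 in grik4, 0.01 in grik3, 0.01 in grik1a and -0.07 in grik5, and none of these passed. As deposited, the duplicates grik1a and grik1b thus differed in call at the same age. The interval of grik1a ran from -0.11 to 0.12 and that of grik1b from 0.28 to 0.49. After centring, grik1a (0.20), grik3 (0.20) and grik4 (0.25) also rose, and grik5 (0.12) did not pass. With a second quantile normalization grik4 (0.21) rose, while grik1a (0.02), grik3 (0.09) and grik5 (0.05) did not pass. The only delta receptor gene under the rule, grid1a, whose mammalian counterpart acts as a synaptic adhesion partner, differed by -0.08 ± 0.10 (adjusted p = 0.514).

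Of 11 metabotropic receptor genes 5 rose at 28 dpf and none fell by limma's test (0 at an unadjusted p under 0.05, against 5 higher). Over all genes 21.8% rose and 39.0% fell. For grm6b, mutant pools measured 8.50, 8.64 and 8.73, and heterozygous pools 7.85, 7.89 and 7.91. The groups were separated by more than their spread, with a difference of 0.74 ± 0.07 (limma adjusted p = 2.15e-07). Its duplicate grm6a rose by 0.26 ± 0.07 (adjusted p = 0.00629), with 9.13, 9.40 and 9.34 in mutant and 8.95, 9.05 and 9.11 in heterozygous pools.

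The group I gene grm5b measured 8.78, 8.88 and 8.80 in mutant pools at 28 dpf, against 8.17, 8.24 and 8.43 in heterozygous pools (0.54 ± 0.07, limma adjusted p = 9.75e-06). Its duplicate grm5a was higher by 0.20 ± 0.11 and did not pass (adjusted p = 0.114). The group II gene grm3, which encodes a receptor that inhibits adenylyl cyclase, had 6.29, 6.47 and 6.50 in mutant and 5.82, 5.97 and 5.81 in heterozygous pools (0.55 ± 0.12, adjusted p = 0.000862). Here too the heterozygous values lay below the filter level, so the size is not exact. The group III gene grm7, a presynaptic receptor in mammals, rose by 0.27 ± 0.06 (adjusted p = 0.000503). As deposited, no call was made for grm2a (0.03), grm2b (0.13), grm4 (-0.03), grm8a (-0.02) and grm8b (0.18). The 3 mutant pools of grm8b scattered over 7.06, 7.69 and 6.92. After centring, grm2a (0.23), grm2b (0.33), grm5a (0.40), grm8a (0.18) and grm8b (0.37) rose. With a second quantile normalization the same genes rose except grm8a, and grm4 was called with neither scaling. Over all 14002 genes, 5842 rose with centring and 4388 with the second quantile normalization.

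**Figure D2:**
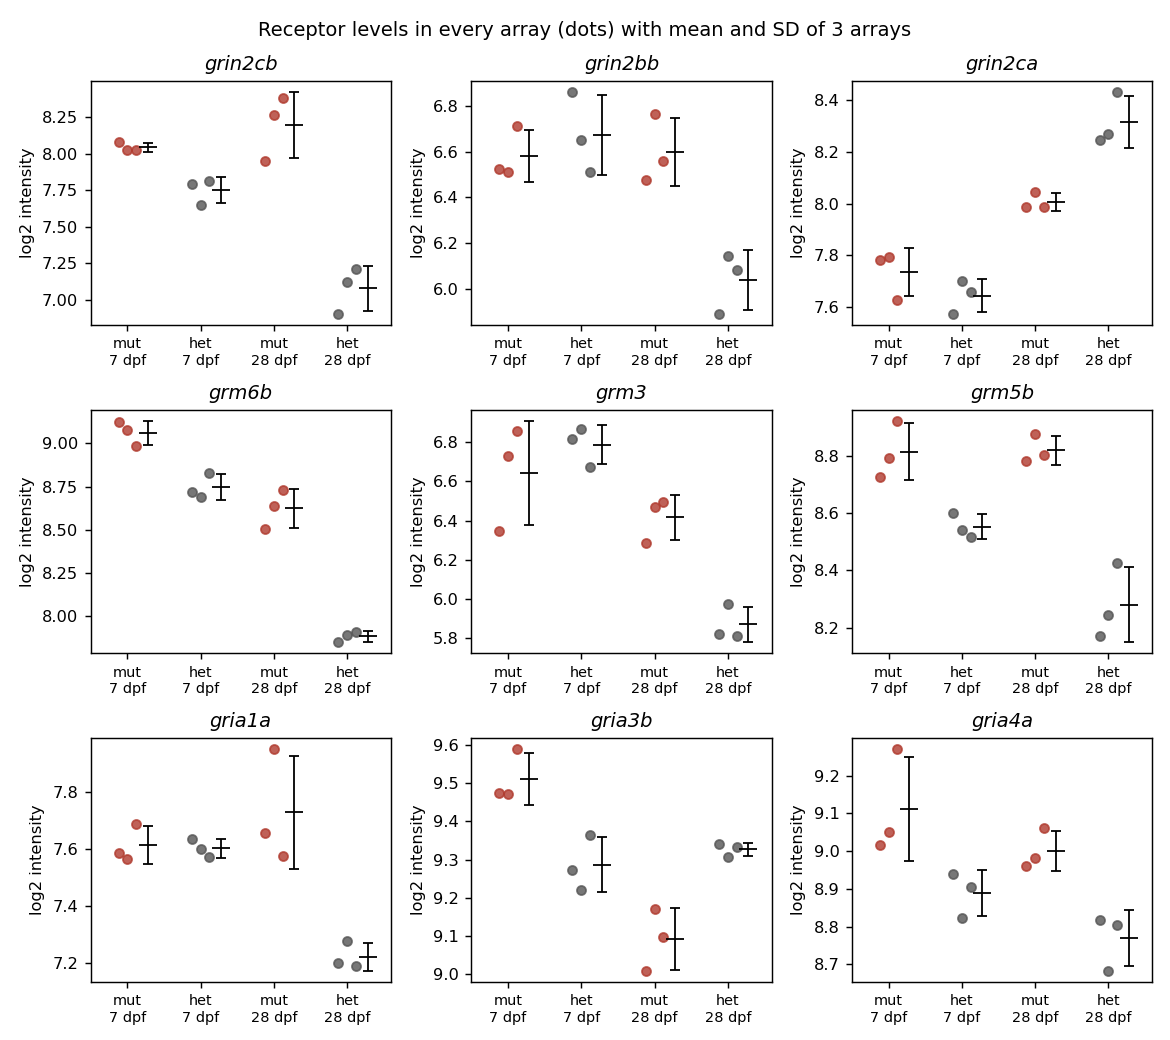
Log2 intensity of 9 receptor genes in every array, with dots for pools of mutant (red) and heterozygous (grey) eyes at 7 and 28 dpf and bars for the mean and SD of 3 arrays. The vertical axes differ between panels and do not start at 0. The heterozygous pools at 28 dpf are the lowest group for grin2cb, grin2bb, grm6b, grm3, grm5b, gria1a and gria4a and the highest for grin2ca.

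Ionotropic and metabotropic genes are set side by side without a test, since genes are not replicates. At 7 dpf the median difference was 0.11 over the 23 ionotropic genes, of which 2 rose, and 0.07 over the 11 metabotropic genes, of which 2 rose. At 28 dpf the medians were 0.18 and 0.20, with 13 ionotropic genes rising and 2 falling beside the 5 metabotropic rises. Over all genes 4.05% rose at 7 dpf and 21.8% at 28 dpf. With a second quantile normalization, 14 ionotropic and 9 metabotropic genes rose at 28 dpf (medians 0.21 and 0.33), and with centring 19 and 10. The falls then numbered 2, both ionotropic, and 0. Over all 14002 genes these scalings gave 4388 and 5842 rises. At 7 dpf the former gave 9 ionotropic and 2 metabotropic rises, and the latter 5 and 2. Which class had the larger share of rises at 28 dpf thus depended on scaling. By subfamily, 8 of 8 NMDA, 5 of 8 AMPA and 2 of 6 kainate genes were called at 28 dpf. So were 1 of 2 group I, 1 of 3 group II and 3 of 6 group III genes. Of all genes 60.8% were called at that age (21.8% rose and 39.0% fell), and differences between subfamilies were not tested. Of the 3 genes with 2 probe sets (gria2b, gria3a and grik1a), the dimmer probe set was called in no comparison. Its group means, 4.23 to 5.64 over these genes, lay below the filter level of 6.14 to 6.26. A mean of the 2 probe sets therefore includes 1 below that level. The gene listed as GRIN3A in capitals fell outside the naming rule. Its means were 5.54 in mutant and 5.43 in heterozygous eyes at 7 dpf, and 5.59 in mutant and 5.41 in heterozygous eyes at 28 dpf, and it too was called in no comparison.

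The interaction asked whether the mutant difference at 28 dpf departed from that at 7 dpf. Upward means a higher signed difference (mutant minus heterozygous) at 28 dpf than at 7 dpf, and downward a lower one. The interaction was called in 13 receptor genes, 11 upward and 2 downward, against 18.1% of all genes upward and 29.1% downward, 47.2% together. The largest were grin2cb (1.12 at 28 dpf against 0.29 at 7 dpf; interaction 0.83 ± 0.14, limma adjusted p = 0.000226), grm3 (0.55 against -0.14; 0.69 ± 0.17, adjusted p = 0.00323) and grin2bb (0.56 against -0.09; 0.65 ± 0.16, adjusted p = 0.00316). In grm3 the pools at 7 dpf overlapped, at 6.35, 6.73 and 6.86 in mutant and 6.82, 6.87 and 6.67 in heterozygous eyes. Those of grin2bb did so as well, at 6.52, 6.51 and 6.71 in mutant and 6.86, 6.65 and 6.51 in heterozygous eyes. In both genes the heterozygous values at 28 dpf lay below the filter level, so the sizes of these interactions are not exact.

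For gria1a the difference was 0.51 at 28 dpf against 0.01 at 7 dpf, where mutant pools measured 7.59, 7.56 and 7.69 and heterozygous pools 7.64, 7.60 and 7.57 (interaction 0.49 ± 0.12, limma adjusted p = 0.00342). In the downward direction, gria3b had a difference of -0.23 at 28 dpf against 0.22 at 7 dpf (-0.46 ± 0.08, adjusted p = 0.000386). For grin2ca it was -0.31 against 0.09 (-0.40 ± 0.10, adjusted p = 0.00413), and centring ended that call (adjusted p = 0.0547). The interaction of grm6b was 0.43 ± 0.10 (adjusted p = 0.00179), with a rise at both ages that was the larger at 28 dpf (0.74 against 0.31). Weaker interactions in grm5b (0.28), grm7 (0.21) and grin1a (0.20) were lost in 7, 9 and 6 of the 12 fits without 1 array, and those of grm7 and grin1a also with a second quantile normalization or no variance trend. Those fits were, for grm5b, the ones without pool 1 or 2 of either genotype at 7 dpf, heterozygous pool 1 or 2 or mutant pool 2 at 28 dpf. For grm7 they were all except the ones without mutant pool 3 at 7 dpf or mutant pool 2 or 3 at 28 dpf, and for grin1a the ones without heterozygous pool 3 or mutant pool 1 or 2 at 7 dpf, or heterozygous pool 2 or 3 or mutant pool 2 at 28 dpf.

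The age comparisons asked how receptor levels differed between juvenile and larval eyes within each genotype. They use the same arrays as the genotype comparisons and are not independent of them. In mutant eyes 8 receptor genes rose and 7 fell with age, with a median of -0.00, while 26.0% of all genes rose and 37.9% fell, 63.9% together. The 28 dpf pools lay above the 7 dpf pools in 8 and below them in 7 receptor genes, beside 27.5% and 38.2% of all genes, 65.7% either way. After centring 13 receptor genes rose and 2 fell in mutant eyes, beside 5499 rises and 3822 falls over all 14002 genes. In heterozygous eyes 4 rose and 13 fell, with a median of -0.08, while 20.9% of all genes rose and 22.1% fell, 43.0% together. Here the 28 dpf pools lay above in 6 and below in 15 receptor genes, beside 27.0% and 29.2% of all genes, 56.3% either way. Cell type markers shifted with age too. All 9 rod markers rose in both genotypes, and of 11 skeletal muscle markers 8 rose in heterozygous and 11 in mutant eyes. Of 8 pigment epithelium markers 7 fell and 1 rose in heterozygous eyes, and 5 fell and 1 rose in mutant eyes. Bipolar cell markers had 2 rises and 4 falls in heterozygous and 6 rises and 3 falls in mutant eyes. Of 9 horizontal cell markers, 0 rose (1 at an unadjusted p under 0.05) and 4 fell in heterozygous eyes, and 6 rose and 1 fell in mutant eyes. Ganglion cell markers, 15 in all, had 3 rises and 7 falls in heterozygous and 3 rises and 3 falls in mutant eyes. For 14 amacrine cell markers these counts were 3 and 6 in heterozygous and 1 and 3 in mutant eyes. Of 11 Müller glia markers 6 rose and 1 fell in heterozygous eyes, and 8 rose and 0 fell in mutant eyes. Cone markers, 10 in all, had 1 rise and 3 falls in heterozygous and 5 rises and 2 falls in mutant eyes. Of 10 lens markers 3 rose in heterozygous and 4 in mutant eyes, and of 7 oligodendrocyte markers 4 and 3 rose, with 0 falls in either list. The part of these shifts in the receptor differences was not tested.

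In mutant eyes gria1b rose to 8.65, 8.87 and 8.73 at 28 dpf, against 8.31, 8.19 and 8.20 at 7 dpf (0.51 ± 0.07, limma adjusted p = 9.2e-06). It also rose in heterozygous eyes, with 8.72, 8.57 and 8.74 at 28 dpf and 8.14, 8.17 and 8.22 at 7 dpf (0.50 ± 0.07, adjusted p = 2.81e-05). The 2 ages did not overlap in either genotype. Mutant eyes further showed rises in grm5a, with 6.81, 6.90 and 6.65 at 28 dpf and 6.30, 6.24 and 6.39 at 7 dpf (0.48 ± 0.11, adjusted p = 0.00108), and in grm2b, with 7.17, 7.22 and 7.22 against 6.89, 6.78 and 6.91 (0.34 ± 0.08, adjusted p = 0.00172). For grm6a the mutant values at 28 dpf given above stood against 9.09, 9.03 and 8.92 at 7 dpf (0.28 ± 0.07, adjusted p = 0.00348). Smaller rises in mutant eyes were in grin2ca (0.27), grin1a (0.18), grik1a (0.16) and gria4b (0.13). The rise of gria4b was lost in 9 of 12 fits without 1 array, all but those without heterozygous pool 1 or 3 at 7 dpf or mutant pool 1 at 28 dpf. It was also lost with no filter, a second quantile normalization, no variance trend or the mutant arrays alone. That of grik1a was lost without mutant pool 2 at 7 dpf or mutant pool 1 or 2 at 28 dpf, with the mean of its 2 probe sets and with a second quantile normalization, which ended the call of grin1a as well.

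The falls in mutant eyes were led by grm6b (-0.44 ± 0.07, limma adjusted p = 3.49e-05) and gria3b (-0.42 ± 0.06, adjusted p = 1.58e-05), whose pools at the 2 ages did not overlap. For grm8b, the level was 7.06, 7.69 and 6.92 at 28 dpf and 7.57, 7.61 and 7.62 at 7 dpf, so the ages overlapped in mutant eyes (-0.38 ± 0.15, adjusted p = 0.0362). That call was lost without any of the 3 mutant pools at 7 dpf and without mutant pool 1 or 3 at 28 dpf. The level of grin2ab was 9.09, 9.17 and 9.08 at 28 dpf and 9.36, 9.33 and 9.32 at 7 dpf (-0.23 ± 0.05, adjusted p = 0.0012). Smaller falls were in grm2a (-0.19), gria2a (-0.19) and gria3a (-0.18). Of the 7 falls, those of grin2ab, gria2a, gria3a, grm2a and grm8b were not called after centring. The calls of grm2a and grm8b were also lost with a second quantile normalization, that of gria3a with the mean of its 2 probe sets, and that of grm2a with the mutant arrays alone and without mutant pool 1 or 2 at 7 dpf or mutant pool 1 at 28 dpf.

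In heterozygous eyes the rises with age were in grin2ca, with 8.25, 8.27 and 8.43 at 28 dpf and 7.57, 7.70 and 7.66 at 7 dpf (0.67 ± 0.07, limma adjusted p = 1.69e-06), in gria1b as above, in grik1a and in grid1a. For grik1a the pools measured 9.37, 9.25 and 9.41 at 28 dpf and 9.04, 9.02 and 9.06 at 7 dpf (0.30 ± 0.06, adjusted p = 0.000402). The values of grid1a were 6.85, 6.70 and 6.93 at 28 dpf and 6.66, 6.54 and 6.45 at 7 dpf (0.28 ± 0.10, adjusted p = 0.0329). The mean of its 2 probe sets ended the call of grik1a. Centring or a second quantile normalization ended that of grid1a, and so did leaving out heterozygous pool 2 or 3 at 7 dpf or heterozygous pool 1 or 3 at 28 dpf.

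The largest falls in heterozygous eyes were in grm3 (-0.92 ± 0.12, limma adjusted p = 1.32e-05), grm6b (-0.86 ± 0.07, adjusted p = 5.16e-08), grin2cb (-0.67 ± 0.10, adjusted p = 5.86e-05) and grin2bb (-0.63 ± 0.11, adjusted p = 0.000263). In each of these the 3 pools at 28 dpf, listed above, lay below the 3 at 7 dpf. For grm3 and grin2bb the heterozygous values at 28 dpf lay below the filter level, so the sizes and ranks of their falls are not exact. The level of grin2cb at 7 dpf was 7.79, 7.65 and 7.81 in heterozygous eyes. Mutant eyes had 7.95, 8.26 and 8.38 at 28 dpf and 8.08, 8.03 and 8.03 at 7 dpf. As deposited there was no call for age in mutant eyes (0.15 ± 0.10, adjusted p = 0.195). A rise was called there after centring (0.29, limma adjusted p = 0.0164) and with a second quantile normalization (0.24, limma adjusted p = 0.0348). Other falls in heterozygous eyes were in grin2ab (-0.51), grm8b (-0.41), gria1a (-0.38), grik2 (-0.30), grm7 (-0.28), grm5b (-0.27), gria3a (-0.22), grm2a (-0.19) and grik1b (-0.19). The falls of grm8b and grm2a were each lost in 5 of 12 fits without 1 array, those without any of the 3 heterozygous pools at 7 dpf or heterozygous pool 1 at 28 dpf, and without heterozygous pool 3 at 28 dpf for grm8b or pool 2 for grm2a. The call of grm2a was also lost with the heterozygous arrays alone, and that of gria3a with the mean of its 2 probe sets. All 6 metabotropic genes called with age in heterozygous eyes, of 11 tested, fell, beside 22.1% of all genes that fell and 20.9% that rose. In mutant eyes 3 metabotropic genes rose and 3 fell. Across the 34 genes, 5 fell in both genotypes, 3 rose in both and 10 were called in neither. Calls in heterozygous eyes alone were 8 falls and 1 rise, and those in mutant eyes alone were 2 falls and 5 rises. Such joint counts were not made over all genes, and by themselves they do not test a difference between genotypes.

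**Figure D3:**
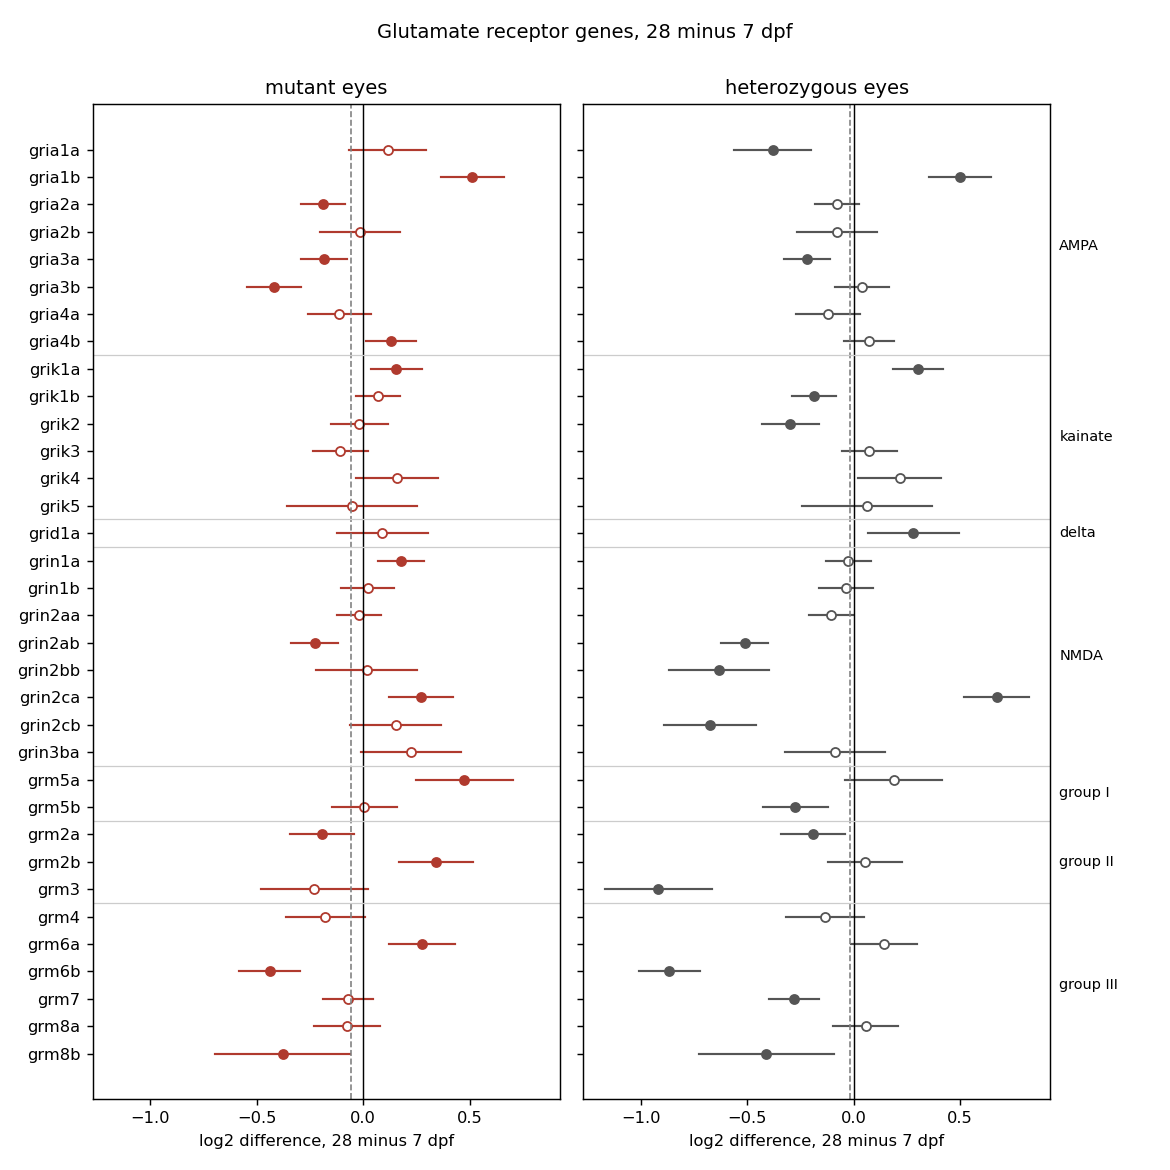
Log2 differences (28 minus 7 dpf) of the 34 receptor genes tested in mutant (left) and heterozygous (right) eyes, with 95% intervals from limma (n = 3 pools per group). Filled points passed at an adjusted p under 0.05 and the dashed line is the median of all genes. The extremes are 0.51 for gria1b and -0.44 for grm6b in mutant eyes, and 0.67 for grin2ca and -0.92 for grm3 in heterozygous eyes. The heterozygous values of grm3 at 28 dpf lay below the filter level, so its size is not exact.

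Lists of genes that act with the receptors are read beside the 60.8% of all genes called at 28 dpf (21.8% rose and 39.0% fell, median -0.09) and the 12.4% called at 7 dpf (4.05% rose and 8.40% fell, median -0.03). With centred arrays, 5842 of all 14002 genes rose and 3284 fell at 28 dpf, and 764 rose and 1021 fell at 7 dpf. Auxiliary subunits bind AMPA and kainate receptors and set their gating and their place at the synapse. At 28 dpf 18 of 21 such genes tested rose in mutant eyes and none fell by limma's test (0 at an unadjusted p under 0.05, against 18 higher), and the median difference was 0.29. The largest were gsg1l (0.74 ± 0.10, adjusted p = 1.26e-05), the kainate receptor partner neto2b (0.69 ± 0.07, adjusted p = 1.01e-06), shisa6 (0.67 ± 0.09, adjusted p = 1.83e-05) and cacng5a (0.56 ± 0.10, adjusted p = 0.000173). At 7 dpf 3 rose and 2 fell, with a median of -0.06. The AMPA receptor partner gsg1l then lay lower in mutant eyes (-0.84 ± 0.10, adjusted p = 3.45e-05), and cacng5a (0.42), gsg1l2b (0.26) and shisa7b (0.26) lay higher. Only 1 fall was called without heterozygous pool 1 or mutant pool 2 at 7 dpf.

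Scaffold proteins hold the receptors at the postsynaptic density. Of 25 tested, 15 rose and 4 fell at 28 dpf (median 0.28), and 20 rose and 2 fell with centred arrays. Among them pick1, whose product binds AMPA receptors during their uptake from the membrane, was lower in mutant eyes (-0.78 ± 0.09, limma adjusted p = 2.52e-06), and shank2a (0.69), syngap1a (0.63) and dlgap4b (0.57) were higher. At 7 dpf 1 rose and 4 fell (median -0.05), with camk2b2 (-0.43), dlg3 (-0.30) and shank2a (-0.28) lower and dlgap1b (0.24) higher. The call of dlgap1b was lost without any single pool of that age, and the falls numbered 2 without mutant pool 2 at 7 dpf.

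The mGluR6 cascade of ON bipolar cells includes the channel TRPM1 and the proteins that position or switch off the cascade. Of 21 genes tested, 11 rose and 4 fell at 28 dpf (median 0.17), and 15 rose and 2 fell with centred arrays. The orphan receptor gpr179 (0.78 ± 0.06, limma adjusted p = 6.31e-08) and nyx (0.73 ± 0.07, adjusted p = 3.12e-07), which encodes nyctalopin, rose beside grm6a and grm6b. The R7 anchors rgs9bp (-0.74) and rgs7bpa (-0.63) fell; the product of rgs9bp also serves photoreceptors. At 7 dpf 2 rose and 5 fell (median -0.01), with elfn1a (0.51) and gpr179 (0.47) higher and lrit1b (-0.45) and lrit1a (-0.32) lower. The falls numbered 3 without heterozygous pool 2 or 3 at 7 dpf, and 3 after centring.

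Of 19 genes that load glutamate into vesicles or take it up, 7 rose and 2 fell at 28 dpf (median 0.08), and 12 rose and 1 fell after centring. The transporter genes slc1a7a (0.66), slc1a7b (0.61) and slc1a9 (0.42) were higher and slc1a1 (-0.62) was lower. At 7 dpf 2 rose and 8 fell (median -0.20), with slc1a8b (-1.16), slc1a2a (-1.05) and slc1a3b (-0.39) lower and slc1a7a (1.09) higher. The falls at 7 dpf numbered 5 after centring, 5 without heterozygous pool 1 at either age, and 4 without heterozygous pool 2 or mutant pool 2 or 3 at 7 dpf. The rises numbered 1 without heterozygous pool 1 or 2 or any mutant pool at 7 dpf.

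Downstream of group I receptors, 5 of 12 Gq signalling genes rose and 1 fell at 28 dpf (median 0.11), among them the IP3 receptor gene itpr1a (0.53), the diacylglycerol kinase gene dgkza (0.46) and prkcbb (0.25), with trpc1 lower (-0.31). The rises numbered 3 without heterozygous pool 1 at 28 dpf and 8 after centring, and 2 falls were called without mutant pool 3 at 7 dpf. At 7 dpf 3 fell, prkcab (-0.38), trpc1 (-0.30) and prkcaa (-0.17), and none rose by limma's test (1 at an unadjusted p under 0.05); 1 rose without mutant pool 3.

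**Figure D4:**
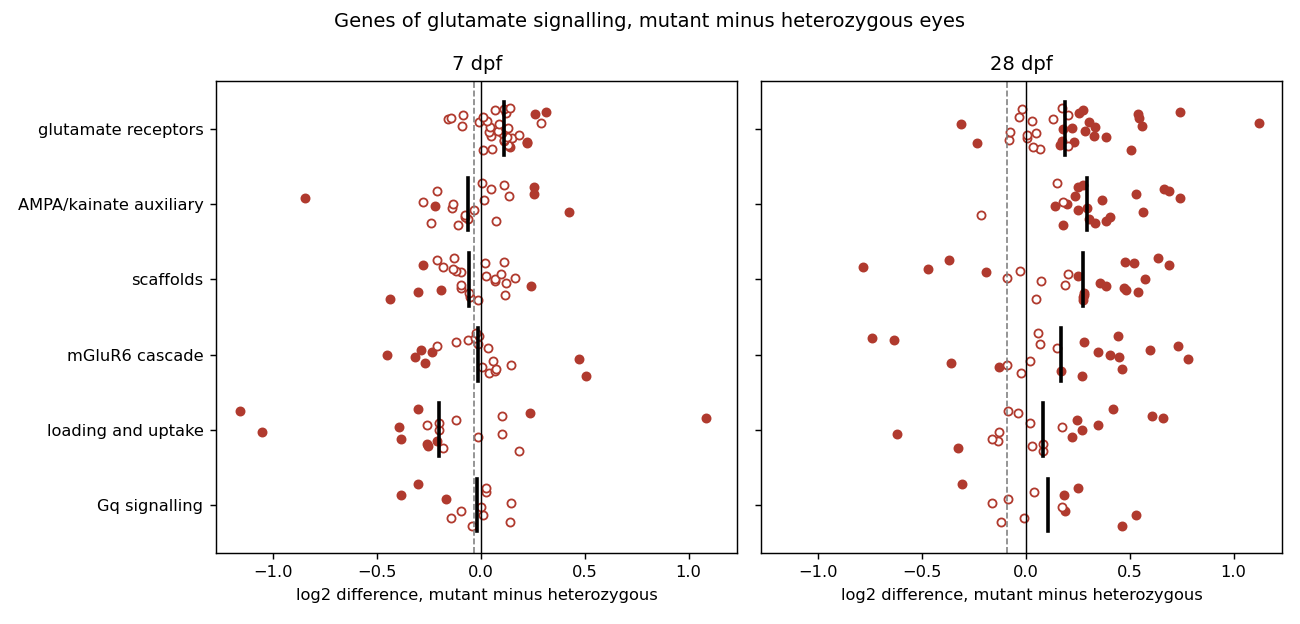
Log2 differences (mutant minus heterozygous eyes) at 7 dpf (left) and 28 dpf (right) of the receptor genes and of 5 lists of genes that act with them, 1 point per gene, filled where the adjusted p lay under 0.05 (n = 3 pools per group). Black bars are list medians and the dashed line is the median of all genes. At 28 dpf the median of the auxiliary subunits lies at 0.29 and that of the receptors at 0.19, and at 7 dpf they lie at -0.06 and 0.11.

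Whole eyes hold many cell types, and in these bulk samples fewer cells of a type and less RNA per cell cannot be told apart. At 28 dpf markers of cells that carry glutamate receptors were called, counting both directions, at shares near the 60.8% of all genes. By direction, 21.8% of all genes rose and 39.0% fell, whereas rises outnumbered falls in the horizontal, ganglion and bipolar cell lists. Of 9 horizontal cell markers 6 rose, and their mean log2 level was 8.10 to 8.15 in mutant and 7.77 to 7.81 in heterozygous pools. Of 15 ganglion cell markers 7 rose and 1 fell (8.90 to 8.91 in mutant, 8.72 to 8.83 in heterozygous pools). Of 11 bipolar cell markers 6 rose and 2 fell (9.70 to 9.73 in mutant, 9.59 to 9.63 in heterozygous pools), and of 14 amacrine cell markers 4 rose and 4 fell (8.39 to 8.46 in mutant, 8.39 to 8.41 in heterozygous pools). With centred arrays the counts were 8 rises and 0 falls for horizontal, 10 and 0 for ganglion, 8 and 1 for bipolar and 7 and 1 for amacrine cells. Over all 14002 genes, 5842 rose and 3284 fell with that scaling. The part of these shifts in the receptor differences was not tested.

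At 7 dpf 4 of 11 bipolar cell markers fell in mutant eyes and none rose by limma's test (0 at an unadjusted p under 0.05). Over all genes 8.40% fell. The bipolar falls numbered 3 after centring. The mean level of the 11 markers was 9.32 to 9.40 in mutant and 9.53 to 9.56 in heterozygous pools. Among the 4 falls were prkcaa and prkcab, which were also counted in the Gq signalling list. The part of marker shifts at this age in the receptor differences was not tested. No amacrine cell marker was called at that age (1 lower at an unadjusted p under 0.05). In the horizontal cell list rem1 rose, a call lost without heterozygous pool 2, and in the ganglion cell list sncga rose, a call lost without mutant pool 2. Beside the 8.40% of all genes that fell at 7 dpf, falls were called in 4 of 11 Müller glia, 5 of 8 retinal pigment epithelium, 3 of 10 cone and 4 of 9 rod markers, and 1 rod marker rose. These lists share members: rlbp1b stands under both Müller glia and pigment epithelium. The Müller glia marker slc1a2a was also counted among the genes of glutamate uptake. The rod falls numbered 0 without heterozygous pool 2 or mutant pool 3, 1 without heterozygous pool 1, and 2 without heterozygous pool 3 or mutant pool 2. The rod rise was lost without any heterozygous pool or mutant pool 2 at 7 dpf.

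Other cell types were followed as well. At 28 dpf 4 of 9 rod markers, 5 of 8 pigment epithelium markers and 4 of 7 oligodendrocyte markers fell, and 4 of 10 cone markers rose, beside 39.0% of all genes that fell and 21.8% that rose. There was also 1 rise each among rod, pigment epithelium and oligodendrocyte markers. The rod rise was lost without heterozygous pool 3, that in the pigment epithelium without mutant pool 1, and that in oligodendrocytes without heterozygous pool 3 or mutant pool 1 or 3, all at 28 dpf. With centred arrays 3 rod markers rose and 3 fell, 3 pigment epithelium markers rose and 3 fell, 2 oligodendrocyte markers rose and 3 fell, and 8 cone markers rose. Over all 14002 genes, centred arrays gave 5842 rises and 3284 falls at this age. Of 11 Müller glia markers 3 rose and 3 fell, with 1 rise without heterozygous pool 1 or 3 or mutant pool 1 or 2 at 28 dpf. Lens markers had 1 rise and 1 fall of 10, the rise being lost without mutant pool 1, and 6 rises and 0 falls with centred arrays. Of 11 skeletal muscle markers 2 rose and 2 fell, their mean level scattering over 6.90 to 7.74 in mutant and 7.43 to 7.65 in heterozygous pools. The muscle rises numbered 4 with centred arrays, 0 without mutant pool 1, 4 without mutant pool 2, and 1 without mutant pool 3 or heterozygous pool 2 at 28 dpf.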

How the data were processed

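Total RNA from whole eyes was measured on 12 Affymetrix arrays. As deposited, each probe set has a log2 intensity from Affymetrix Expression Console and RMA, per the submitters' processing notes (no version named). The labelling protocol names a human or mouse array type, while the deposited probe sets match a zebrafish platform table, from which genes were named. The 75212 probe sets had no missing value (0) and array medians of 5.64 to 5.70, and 20806 had 1 symbol, 855 several and 53551 none. The brightest probe set stood for a gene. Genes above the 33rd percentile of named probe sets on at least 3 arrays were tested. The tests used limma 3.58.1 under R 4.3.3 (1 mean per group, all 12 arrays, variance trend, 8 residual degrees of freedom) with Benjamini-Hochberg adjustment over 14002 genes. The number of arrays limits the precision, and the median SE was 0.08. The fit was also run on simulated data in which few genes were shifted, equally up and down. Those data do not resemble the 28 dpf comparison, where 60.8% of genes were called, and cannot show whether its scaling is right. Members, gene lists and tests were chosen with earlier results of these data known. Array values are given for the called members with the largest differences, up to 6 each way per genotype comparison and 4 each way per other comparison, and up to 4 called genes are named per list. Entrez identifiers of all 37 members matched RefSeq (GRCz12tu). Alternatives covered the filter, probe set choice, scaling, variance trend, replicate block, the arrays in the fit and leaving out each array. Scan dates are not given in these sources and no batch was tested.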

Additional observations from a re-analysis of the deposited data

Results flagged for a closer look

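In 13 receptor genes the mutant difference itself differed between the ages by limma's interaction test, given here as the difference at 28 dpf minus that at 7 dpf (log2, n = 3 pools per group, adjusted over 14002 genes). Among NMDA receptor genes the interaction was 0.83 for grin2cb (adjusted p = 0.000226), 0.65 for grin2bb (0.00316), 0.29 for grin2ab (0.0047), 0.20 for grin1a (0.0313) and -0.40 for grin2ca (0.00413). The AMPA receptor genes gria1a and gria3b stood at 0.49 (adjusted p = 0.00342) and -0.46 (0.000386). Both kainate receptor genes called at 28 dpf were among them, grik2 at 0.28 (adjusted p = 0.0169) and grik1b at 0.26 (0.006). Metabotropic receptor genes gave 0.69 for grm3 (adjusted p = 0.00323), 0.43 for grm6b (0.00179), 0.28 for grm5b (0.0342) and 0.21 for grm7 (0.0405). Over all genes tested 47.2% were called in this comparison, against 13 of 34 receptor genes.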

How the results depend on the processing

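Counts of receptor genes called kept within 1.5 times of the reported ones except as follows. With each array centred on its named probe sets, 7 receptor genes rose at 7 dpf, 29 rose and 0 fell at 28 dpf, 17 rose and 1 fell in the interaction, and 13 rose and 2 fell with age in mutant eyes. Over all 14002 genes, that scaling gave 764 rises at 7 dpf, and 5842 rises and 3284 falls at 28 dpf. It gave 4561 rises and 2493 falls in the interaction, and 5499 rises and 3822 falls with age in mutant eyes. With the named probe sets quantile-normalized again, 11 receptor genes rose at 7 dpf, beside 896 of all genes. Leaving out 1 array gave 1 to 4 rises and 0 falls among the receptors at 7 dpf, 16 to 19 rises and 2 falls at 28 dpf, and 8 to 13 upward and 2 downward interactions. With age it gave 6 to 8 rises and 6 to 7 falls in mutant eyes and 3 to 4 rises and 11 to 13 falls in heterozygous eyes. The alternative scaling shifted the median of all genes at 28 dpf by more than any other choice (-0.09 as deposited, 0.11 centred), and the cause of that shift was not tested. Of the 4, 18 and 11 rises at 7 dpf, at 28 dpf and in the interaction, 1, 11 and 6 were tested and called under every alternative. The stricter filter left grin2bb and grm3 untested, so they are outside these counts. At 28 dpf and in the interaction, both were called in every fit that tested them. No called difference of a receptor gene changed sign under any alternative run (0). Deviations of same-numbered mutant and heterozygous pools correlated at -0.07, 0.06 and 0.12 at 7 dpf and at 0.14, 0.09 and 0.10 at 28 dpf. Those of differently numbered pools correlated at -0.14 to 0.10 at 7 dpf and at -0.09 to -0.01 at 28 dpf. Whether replicate numbers mark paired pools is not given and was not tested. With the replicate number as a block, 4 rose and 0 fell at 7 dpf, 19 rose and 2 fell at 28 dpf, 11 rose and 2 fell in the interaction, and 7 rose and 7 fell with age in mutant and 4 rose and 12 fell in heterozygous eyes. The block ended 2 single calls with age, gria4b in mutant eyes (adjusted p = 0.0511) and grm2a in heterozygous eyes (0.0517). Signal over background was not measured, so dim genes (grin2bb, grm3, grin3ba, grik5) carry inexact sizes.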
